A study of Sorghum bicolor with 12 samples.

Results

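The stretch described here lies at the end of chromosome 8 of sorghum (Sorghum bicolor) and runs from Sb08g021010 to Sb08g023050 in the order of the locus numbers. It took in every annotated locus in that range with a probe on the array, which gave 261 of the 34398 annotated loci measured. The block was chosen by the measured signals of Keller and BTX623 on these same arrays, so the differences between the cultivars given below are a description, and no test of them is reported. Whole seedlings of a grain sorghum, BTX623, and a sweet sorghum, Keller, all 14 days old, were placed in 5% sucrose solution and sampled after 0 h, 2 h and 6 h. Total RNA was hybridised to custom single-colour Agilent arrays. The 6 groups were Keller at 0 h, 2 h and 6 h and BTX623 at 0 h, 2 h and 6 h, each with 2 arrays from separate biological repeats, so 6 arrays stood for each cultivar. All samples at 2 h and 6 h were in sucrose, so time and sucrose cannot be told apart. Whole seedlings mix leaf, stem and root, and fewer cells of a type and less RNA per cell cannot be told apart. All 5 C4 photosynthesis loci taken as leaf markers were well above background on all 12 arrays.

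Cultivated lines of a crop often share long stretches of nearly identical sequence and differ elsewhere, because each line inherits chromosome segments as blocks. Neighbouring genes within a segment are therefore inherited together, and alleles that differ in regulation, copy number or presence can lie side by side. A microarray probe reads how much labelled transcript binds to it, so a low signal in a cultivar can come from little transcript or from a transcript that matches the probe poorly, and these cannot be told apart here.

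Levels are given as scaled signals, which are the background-subtracted processed signal of a probe as a percentage of the 75th percentile of all probes on the same array. Differences are given on the log2 scale, Keller minus BTX623, so a positive value means a higher mean in Keller. A locus was counted as detected on an array where the scanner software marked the spot as well above background. It passed the filter when it was detected on both arrays of at least 1 of the 6 groups. By this rule 200 of the 261 loci passed (76.6%, against 79.4% of all annotated loci) and 61 did not. On all 12 arrays 155 loci were detected, 37 were detected on none and 69 lay in between.

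Most loci of the block had cultivar means within 2-fold of each other. This held for 228 of the 261 loci and for 167 of the 200 that passed the filter. Over the 261 loci, 163 means were higher in Keller and 98 higher in BTX623. The median difference was 0.11 on the log2 scale, compared with 0.08 over all annotated loci, and without scaling between arrays both medians changed sign (-0.07 and -0.11). The larger differences stood at single loci and in short groups. At 14 loci every Keller array lay above every BTX623 array with means at least 2-fold apart, and at 4 loci every BTX623 array lay above every Keller array in the same way. Those 18 loci are called divergent below. The 14 loci higher in Keller were 7.0% of the 200 that passed, beside 1.46% of all annotated loci that passed, and the 4 higher in BTX623 were 2.0%, beside 2.26%. In either direction the share was 9.0% in the block, 3.71% over all loci. The block was picked for this contrast, so nothing is read from these shares. A further 15 loci that passed were at least 2-fold apart with overlapping arrays, 5 higher in Keller and 10 higher in BTX623, and none of the 61 loci that did not pass reached 2-fold.

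**Figure D1:**
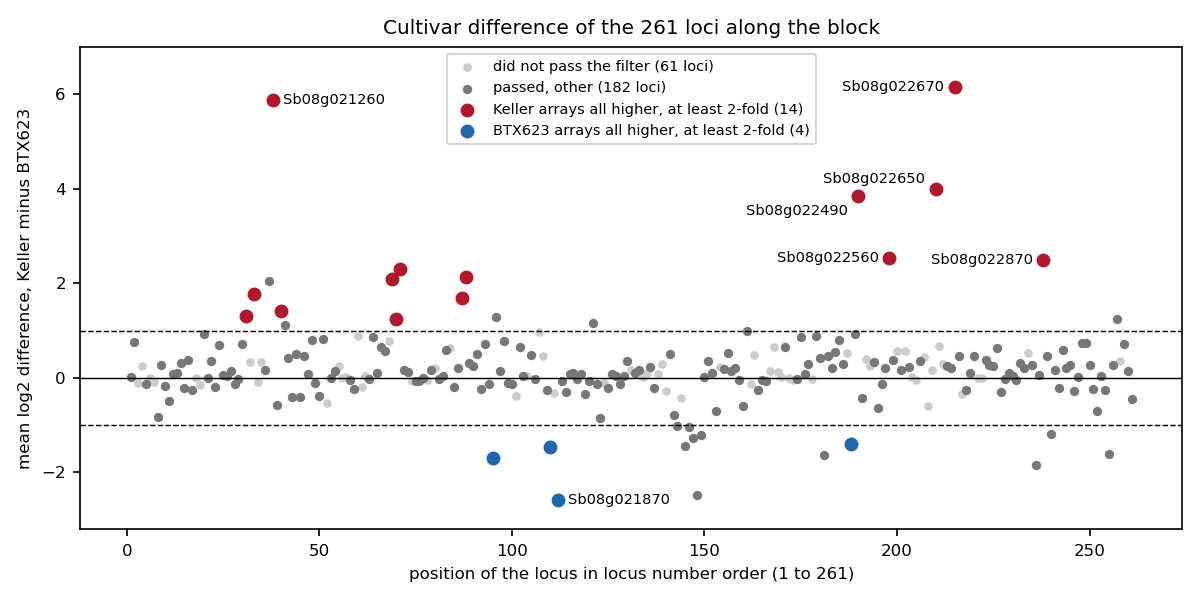
Each point is 1 of the 261 loci, placed by its position in locus number order (x axis) and by the mean log2 signal of the 6 Keller arrays minus that of the 6 BTX623 arrays (y axis), with dashed lines at 2-fold. Red points are the 14 loci with all Keller arrays higher, blue points the 4 with all BTX623 arrays higher, and the red points reach 6.15 while the lowest blue point lies at -2.59.

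The divergent loci were not spread evenly. The first 30 and the last 23 loci of the block held none, and 75 consecutive loci between Sb08g021870 and Sb08g022470 held none either. Cut into 3 parts of 87 loci, the first part had 8 loci higher in Keller and 0 higher in BTX623, the middle part had 1 and 3, and the last part had 5 and 1. The first part had the highest share of loci higher in Keller (12.1% of those that passed) of all windows of 87 loci along chromosome 8, and the last part came next (7.25%). The block was picked for this contrast and the windows were laid out from its first locus. Nothing is therefore read from this ranking. On the rest of chromosome 8, 25 loci (1.88%) were higher in Keller and 60 (4.51%) higher in BTX623 of 1331 that passed. Outside the block BTX623 was thus the higher cultivar at more of the divergent loci than Keller. In the 261 loci just before the block, 6 were higher in Keller and 9 in BTX623, and 8.02% of the loci that passed were divergent in either direction, close to the 9.0% within it. The 33 loci after the block, up to the end of the chromosome, had 1 in each direction.

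**Figure D2:**
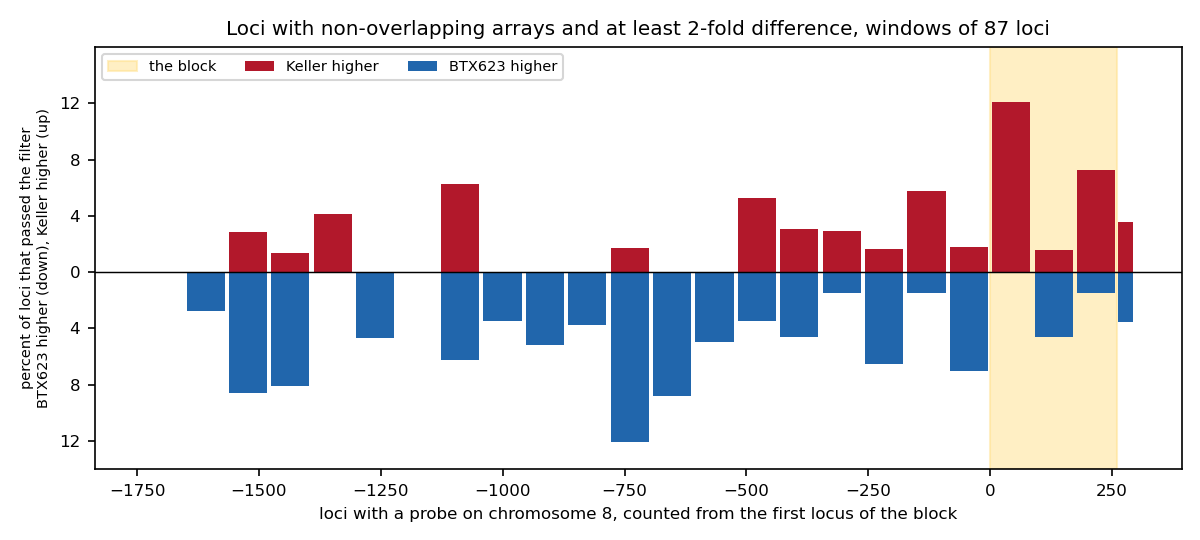
Each bar covers a window of 87 loci with a probe on chromosome 8 (the last covers 33), placed by the number of loci from the first locus of the block, and gives the percentage of loci that passed the filter with non-overlapping arrays and means at least 2-fold apart, upward for Keller higher and downward for BTX623 higher. The shaded block, which was picked for this contrast, holds the tallest upward bar (12.1%), and the tallest downward bar (12.1%) lies outside it. The first 65 loci of the chromosome fill no window and are not shown.

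The ends of the block are set by locus numbers and not by a step in the values. Just inside its start, Sb08g021010, Sb08g021020 and Sb08g021030 differed by 0.02, 0.76 and -0.11 on the log2 scale. Just outside, Sb08g020980, Sb08g020990 and Sb08g021000 differed by 0.12, -0.28 and -0.65. At the other end the last loci inside, Sb08g023030, Sb08g023040 and Sb08g023050, differed by 0.71, 0.15 and -0.46, and the first loci outside, Sb08g023060, Sb08g023062 and Sb08g023065, by 0.54, 0.61 and 0.38. None of these 12 loci was divergent.

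Detection on all 6 Keller arrays and on no BTX623 array was seen at 3 loci, and the reverse at 0. Over all annotated loci, 0.204% showed the first pattern and 0.323% the reverse. Sb08g022670 had scaled signals of 22.5%, 38.2% and 58.8% in Keller (lowest, median and highest of 6 arrays) and of 0.327%, 0.612% and 0.765% in BTX623. Its BTX623 signals were not well above background on any array, so no exact fold can be given. With those arrays set to their own lowest detected signal of any probe, Keller was 20.5-fold higher. At Sb08g021260 the Keller arrays read 29.3%, 45.1% and 93.0% and the BTX623 arrays 0.605%, 0.866% and 1.14%. Keller was 27.7-fold higher by the same rule. The lowest Keller array thus stood far above the highest BTX623 array at both loci. Sb08g022650, which lies 5 positions before Sb08g022670, had 7.15%, 11.0% and 12.9% in Keller against 0.312%, 0.568% and 1.35% in BTX623. By this rule Keller was 5.44-fold higher. In these folds a dim array kept its measured signal where that was higher still. They are not strict lower limits, since a spot not well above background read 3.04% at Sb08g022870 (BTX623 at 0 h). No gene list used here annotates these loci, and their products are not named.

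The neighbours of these loci in the last part of the block gave no difference of that size. Between Sb08g022650 and Sb08g022670 lie Sb08g022653 and Sb08g022656, which did not pass the filter, and Sb08g022660 and Sb08g022665, which differed by 0.24 and 0.20. Sb08g022665 was detected on all 12 arrays and had medians of 23.1% in Keller and 19.3% in BTX623.

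Around Sb08g021260 the picture was different, and several neighbours shared the direction. Sb08g021240, at position 31 of the block, had 35.0%, 42.1% and 72.0% in Keller and 11.7%, 16.9% and 33.5% in BTX623, a difference of 1.31. Its second neighbour Sb08g021243 had 22.1%, 27.2% and 35.6% against 4.26%, 9.11% and 11.0%, a difference of 1.77. For Sb08g021280 the signals were 19.1%, 24.4% and 38.3% in Keller and 6.38%, 9.43% and 17.2% in BTX623, a difference of 1.41. These 3 loci were detected on all 12 arrays, so both cultivars gave a measured level and the arrays did not overlap. Sb08g021250 and Sb08g021290, also in this group, were 2.05 and 1.12 higher in Keller with overlapping arrays. Sb08g021270 lies between them and went the other way, by -0.59, with detection on all 12 arrays. From position 31 to position 41, then, 6 of the 8 loci that passed were at least 2-fold higher in Keller, and the other two, Sb08g021248 (0.16) and Sb08g021270, were not.

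Of the divergent loci, 5 stood directly beside another of the same direction. Sb08g021490, Sb08g021500 and Sb08g021510 are consecutive on the array's list of loci. Sb08g021490 had 7.12%, 8.20% and 9.78% in Keller and 1.20%, 2.02% and 3.05% in BTX623 (2.09 on the log2 scale), and Sb08g021510 had 7.36%, 7.92% and 8.22% against 1.12%, 1.55% and 2.28% (2.31). The Keller arrays at Sb08g021510 were the least scattered of the divergent loci, with an SD of 0.06 on the log2 scale (n = 6), and the BTX623 arrays had an SD of 0.43 (n = 6). Between them Sb08g021500 gave 7.83%, 9.69% and 13.9% in Keller and 3.29%, 4.23% and 5.24% in BTX623, a difference of 1.24. In BTX623 the flanking 2 were detected on 3 and 1 of 6 arrays, while Sb08g021500 was detected on all 6. The adjacent Sb08g021630 and Sb08g021640 were detected on all 6 Keller arrays and on 4 and 5 BTX623 arrays. Sb08g021640 had 5.76%, 7.66% and 16.8% in Keller and 0.867%, 2.15% and 2.98% in BTX623 (2.13), and Sb08g021630 had 4.20%, 4.67% and 8.68% against 0.476%, 1.98% and 2.50% (1.68). No probe sequence was held, so whether neighbouring probes can bind each other's transcripts was not tested.

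In the last part, Sb08g022490 had 17.1%, 40.6% and 109.9% in Keller and 1.40%, 3.16% and 4.88% in BTX623, a difference of 3.85 (SD 0.87 in Keller and 0.71 in BTX623, n = 6 each). It was detected on 5 of the 6 BTX623 arrays, so low signal was measured there. Just before it, Sb08g022480 was detected on all 12 arrays and differed by 0.92. Sb08g022870 had 9.28%, 22.3% and 47.9% in Keller and 3.04%, 3.80% and 4.79% in BTX623, a difference of 2.49. Its Keller arrays were the most scattered of the loci higher in Keller (SD 1.02, n = 6). At 0 h they read 9.28% and 11.1%, at 2 h 47.9% and 14.0%, and at 6 h 37.1% and 35.3%, whereas the BTX623 arrays stayed between 3.04% and 4.79% over all times. The tests of these changes are given with the sucrose results.

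The only transcription factor among the divergent loci was Sb08g022560, annotated as weakly similar to a No apical meristem protein. Such NAC proteins bind DNA and act in meristem boundaries, senescence and stress responses of plants. Keller arrays read 1.49%, 2.89% and 4.91% and BTX623 arrays 0.353%, 0.484% and 0.715%. The locus was detected on 4 Keller arrays and on none of BTX623. With the BTX623 arrays set to their own lowest detected signal of any probe, Keller was 1.5-fold higher, which is not a strict lower limit. Its measured difference of 2.54 thus rests on signals close to background, and the value from all 6 Keller arrays includes 2 that were not well above it.

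Higher in BTX623 were 4 loci, 3 of them in the middle part. Sb08g021850 is annotated as similar to the serine/threonine-protein phosphatase BSL2, a kelch-repeat phosphatase of a family that acts in brassinosteroid signalling in Arabidopsis. Its arrays read 27.9%, 29.5% and 36.5% in Keller and 67.7%, 83.5% and 98.0% in BTX623, a difference of -1.45, with SDs of 0.14 and 0.21 (n = 6 each). It was detected on all 12 arrays, and the gap between the cultivars was wide beside the scatter within either of them. Sb08g021870, 2 positions further on, had 1.26%, 3.32% and 7.76% in Keller and 13.1%, 19.0% and 35.1% in BTX623 (-2.59), with detection on 3 Keller arrays. Sb08g021710 was detected on 1 Keller array and on all 6 of BTX623, with 0.597%, 1.54% and 2.41% against 2.85%, 4.08% and 6.05% (-1.70), but its difference was 0.05 with the other sign after normexp background correction. Sb08g022470 lies 2 positions before Sb08g022490, which was higher in Keller, and was detected on all 12 arrays with 1.84%, 2.19% and 2.82% in Keller and 4.31%, 6.31% and 8.85% in BTX623 (-1.39).

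**Figure D3:**
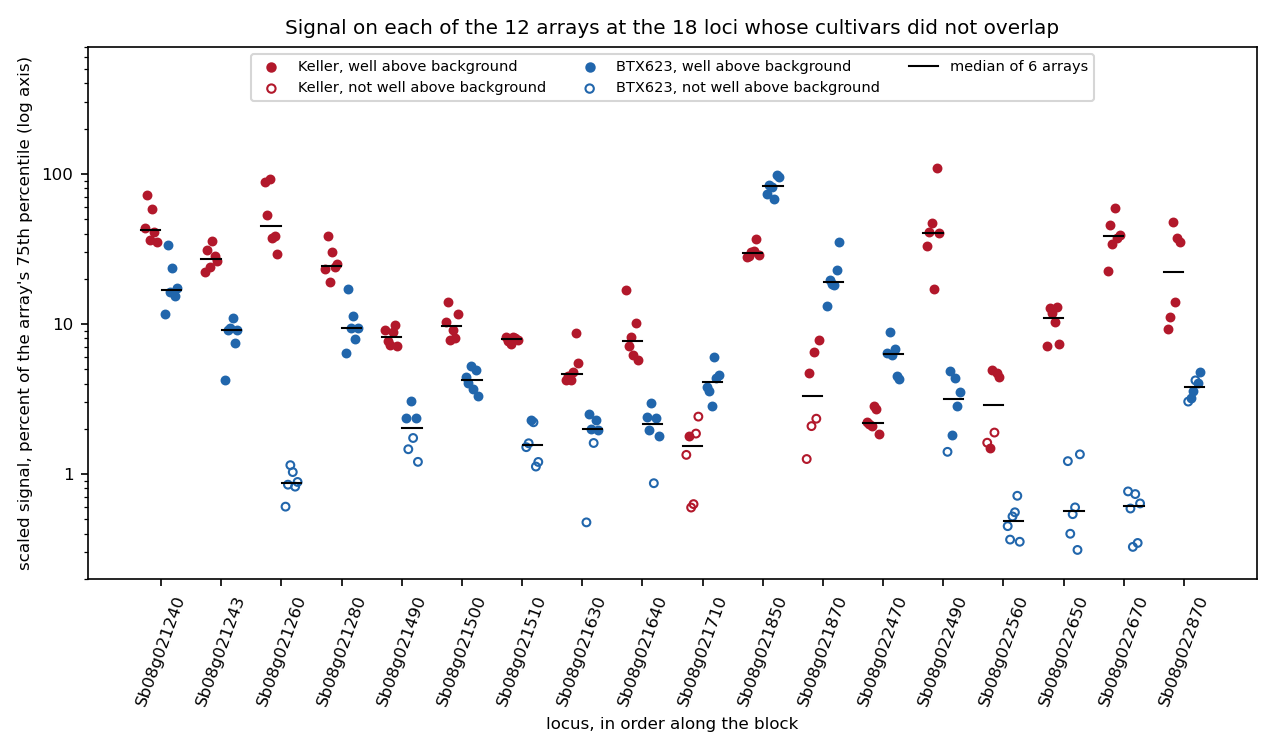
Scaled signal of each array (log axis, percent of the array's 75th percentile) for the 18 divergent loci in order along the block, with Keller in red and BTX623 in blue, filled where the spot was well above background and open where it was not. Black lines are medians of 6 arrays, and at Sb08g021260, Sb08g022650 and Sb08g022670 all 6 BTX623 points are open and all 6 Keller points are filled.

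The slides held both cultivars in unequal numbers and times, so the size of the cultivar difference was also taken within each. The direction at the divergent loci was fixed by the rule that picked them, since their arrays do not overlap, and is no evidence of stability. The rule also asked for means at least 2-fold apart on these same arrays. The sizes within slides and times are therefore a description too. On slides 1, 2 and 3, 17, 18 and 16 of the 18 loci were at least 2-fold apart. At the time points, 18 loci were at least 2-fold apart at 0 h, 17 at 2 h and 17 at 6 h, and 16 were so at all of them. The smallest difference within a slide was that of Sb08g021240, with 0.55 on slide 3 against 1.78 and 2.03 on the others. Another background correction (normexp with an offset of 50) also moved the differences. At some loci a slide moved them more, as at Sb08g021630, with 1.68 over all arrays, 0.58 with normexp and 3.49 on slide 1. With normexp 17 of the 18 loci had the same sign nearer to 0. Of these, the loci higher in Keller lay between 0.58 and 2.30 and those higher in BTX623 between -0.17 and -1.02. In all, 11 of the 18 were less than 2-fold apart.

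Detection in 1 cultivar only, judged by both arrays of at least 1 time point, was seen at 23 loci, of which 14 were detected in Keller only (background 3.56%) and 9 in BTX623 only (background 2.25%). Of the 14, 6 were among the divergent loci, and of the 9, 2 were. Among the remaining loci, Sb08g021720 was detected on both Keller arrays at 0 h (7.96% and 8.26%) and at 2 h (3.12% and 7.15%). In BTX623 it was detected only on the first array at 2 h (2.78%). Others had signals near the limit of detection in both cultivars. Sb08g021335, for example, was detected on 5 Keller and 3 BTX623 arrays with medians of 3.27% and 2.54%, and Sb08g021560 on 2 and 4 arrays with medians of 2.94% and 2.99%. A locus detected in 1 cultivar only by this rule was therefore often detected on some arrays of the other. The exception in the direction of BTX623 was Sb08g022850, detected on 3 BTX623 arrays and on no Keller array, with 0.263%, 0.399% and 0.493% in Keller and 0.373%, 1.42% and 5.20% in BTX623. Those signals overlapped.

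The loci that overlapped but had means over 2-fold apart included some of high signal. Sb08g023000 was detected on all 12 arrays, with 229.6%, 454.4% and 1707% in Keller and 899.8%, 1478% and 4571% in BTX623 (-1.61). A second probe of the same locus gave -1.53. Both cultivars varied widely among their own arrays here, with SDs of 1.21 and 1.0 (n = 6 each). Sb08g022883 was also detected on all 12 arrays and gave 24.2%, 30.8% and 53.1% against 45.3%, 72.6% and 143.0% (-1.19). Loci with several probes numbered 8, and the cultivar difference of another probe lay within 0.16 of the value used at each. At Sb08g022680 the other probe, detected on 5 arrays, changed by -1.84 at 6 h, against -0.62 for the probe used.

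Some loci with a described product hardly differed between the cultivars, and 3 picked after their values were seen are given here. Sb08g022210, similar to methionine synthase, which makes methionine from homocysteine, had medians of 2537% in Keller and 2409% in BTX623 and differed by 0.02. Sb08g022030, similar to YABBY 6, of a family of transcription factors that set leaf polarity, differed by 0.04, with medians of 221.1% and 206.7%. The TATA-box-binding protein homolog Sb08g022273, part of the general transcription machinery, differed by 0.15. For 65 of the 261 loci a description was found in the study's gene lists, but only 2 of the 18 divergent loci were among them, Sb08g021850 and Sb08g022560. The lists of transcription factors and segmental duplicates were held in part, so these numbers are lower limits.

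Transcription factors numbered 12 in the block, of which 11 passed the filter and 1, the NAC locus, was divergent (background 3.71%). Their median difference was 0.07. After the NAC locus the largest differences were those of Sb08g021375, of the GRAS family (0.83, with detection on 5 Keller and 3 BTX623 arrays), Sb08g021350, similar to a class III HD-Zip protein, of a family that patterns vascular tissue and leaves (0.80), and the homeobox locus Sb08g022960 (0.74). Sb08g021350 had 36.3%, 51.0% and 63.1% in Keller and 25.6%, 28.8% and 30.4% in BTX623. Its arrays did not overlap, but the means were less than 2-fold apart.

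Of the carbohydrate metabolism genes listed, 2 lay in the block and neither was divergent. Sb08g021770, the E1 beta subunit of pyruvate dehydrogenase, which feeds pyruvate into the citric acid cycle, had 409.3%, 470.9% and 617.6% in Keller and 208.7%, 320.5% and 430.8% in BTX623 (0.66). Sb08g022770, similar to the glyoxysomal malate dehydrogenase, an enzyme of peroxisomal lipid breakdown and photorespiration, differed by -0.03. The median of both was 0.31, beside 0.08 over all annotated loci.

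Genes related to mobile elements were few in the block, and with 3.71% of all loci divergent nothing is read from a count of 0 among them. Of 14 loci listed as LTR-retrotransposon related, 8 passed the filter, 4 were detected on no array and 0 were divergent. The largest difference was 1.0 at Sb08g022290, with 46.5%, 76.7% and 171.4% in Keller against 21.1%, 40.4% and 74.4% in BTX623, which overlapped. Within this list Sb08g022342, Sb08g022344, Sb08g022345, Sb08g022347 and Sb08g022348 share the description of a SET domain protein, and only Sb08g022345 passed (0.66). Of 9 loci listed as related to CACTA elements, a class of DNA transposons, all passed and 0 were divergent. Sb08g021290 had the largest difference of these (1.12), and Sb08g021310, similar to VTC2, an enzyme of ascorbate synthesis, was lower in Keller by -0.40.

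The block has segmental duplicates on chromosome 1, for which 35 pairs had probes for both copies. In 28 pairs both copies passed the filter. The block's copy was divergent in 1 pair, the copy on chromosome 1 in 1 other, and both in 0. Sb08g021850 differed by -1.45 and its duplicate Sb01g013460 by -0.24. Conversely Sb08g021350 differed by 0.80 while its duplicate Sb01g013710 differed by 3.94, with all Keller arrays higher. Sb08g022960 and Sb01g011960 gave 0.74 and 0.05, and Sb08g022240 and Sb01g012910 gave -0.70 and -0.56. The medians over the 28 pairs were 0.06 for the block and -0.01 for chromosome 1.

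Changes over time in sucrose were tested separately, since this contrast did not enter the choice of the block. limma was fitted over all probes that passed the filter, with Benjamini-Hochberg adjustment over all of them, and a call needed a change of at least 2-fold, averaged over both cultivars, with an adjusted p below 0.05. At 2 h, 7 loci of the block were higher than at 0 h (3.5%, beside 0.944% of all loci tested) and 0 were lower (background 1.55%). At an unadjusted p under 0.05, 41 of the block's 200 loci that passed stood apart at 2 h (background 18.6%) and 55 at 6 h (background 29.8%). At 6 h, 10 loci were higher (5.0%, beside 3.7%) and 4 were lower (2.0%, beside 5.57%). The shares at 6 h were thus close to or below those over all loci. Over the loci of the block that passed, the median change was 0.14 at 2 h and 0.17 at 6 h, compared with -0.02 and 0.02 over all annotated loci, which became 0.19 and 0.13 without scaling between arrays. In all 16 loci were called at either time, 5 of them higher at both, and 0 of the 16 were among the 18 divergent loci. A change over time spreads the 6 arrays of a cultivar and makes overlap with the other likelier. Nothing is therefore read from that 0. Arrays with the same replicate number deviated together, so they were treated as pairs in a further fit. The SEs and adjusted p-values of single loci given below come from the main fit, without pairs. With this replicate block 15 loci were called at 2 h (13 higher and 2 lower, background 2.27% and 3.4%) and 26 at 6 h (18 higher and 8 lower, background 5.29% and 7.93%), among them 6 of the 7 and 14 of the 14 above. A fit with the slide as a block called 16 (background 5.55%) and 28 (background 13.6%).

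The calls at 2 h rested on few arrays. With any 1 of the 12 arrays left out, between 0 and 4 loci were called, and without the first Keller array at 2 h there were 0. At 6 h between 11 and 21 loci were called with an array left out, and 10 of the 14 were called whichever array was left out. After normexp background correction 1 locus was called at 2 h, Sb08g021920, and 6 at 6 h, which were Sb08g021840, Sb08g022310, Sb08g022350, Sb08g022430, Sb08g022440 and Sb08g022450. Without scaling between arrays 0 and 7 were called.

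Loci called higher at 6 h lay close together from Sb08g022145 to Sb08g022200. These are 8 neighbouring loci, of which 7 passed and 5 were called. All 5 calls were lost after normexp background correction, with changes between 0.26 at Sb08g022190 and 0.88 at Sb08g022145, and without scaling between arrays Sb08g022170, Sb08g022190 and Sb08g022200 were not called (limma, adjusted p = 0.07, 0.12 and 0.13). Sb08g022145 changed most, from between 2.82% and 7.20% on the 4 arrays at 0 h to between 11.5% and 31.1% at 2 h and between 19.5% and 24.8% at 6 h. Its log2 change was 1.84 at 2 h (SE 0.24, adjusted p = 0.0084) and 2.22 at 6 h (SE 0.24, adjusted p = 0.0012), and the arrays at 0 h did not overlap with those at either later time. Its neighbour Sb08g022150 rose from between 3.34% and 12.0% at 0 h to between 19.2% and 32.5% at 6 h, by 1.35 at 2 h (adjusted p = 0.02) and 1.95 at 6 h (SE 0.22, adjusted p = 0.0015). Sb08g022170 rose by 1.59 at 2 h (adjusted p = 0.041) and by 1.88 at 6 h (adjusted p = 0.0082), with 3 of 4 arrays well above background at 0 h. The others, Sb08g022190 and Sb08g022200, rose by 1.52 (adjusted p = 0.02) and 1.42 (adjusted p = 0.0096) at 6 h and were not called at 2 h (adjusted p = 0.081 and 0.062). The same run stood lower in Keller, where all 7 loci that passed had a lower mean, by between -0.78 and -2.48, with overlapping arrays at each. At 0 h alone, Sb08g022145 read 2.82% and 3.50% in Keller and 7.18% and 7.20% in BTX623, whereas at 6 h it read 19.5% and 20.1% against 24.6% and 24.8%. The cultivar difference in this change was 0.88 at 6 h (SE 0.47) and was not called over all probes (limma, adjusted p = 1.0). None of these loci is annotated in the gene lists.

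The consecutive loci Sb08g022430, Sb08g022440 and Sb08g022450, all detected on all 12 arrays, also rose by 6 h. Sb08g022440 went from between 433.3% and 855.7% at 0 h to between 1118% and 4950% at 6 h, a change of 2.03 (SE 0.31, adjusted p = 0.0046). For Sb08g022430 the arrays lay between 658.6% and 840.9% at 0 h and between 1346% and 4865% at 6 h, a change of 1.80 (SE 0.26, adjusted p = 0.0041). The arrays at 6 h lay above all those at 0 h at both loci. Sb08g022450 rose by 1.54 (SE 0.40, adjusted p = 0.035), from between 354.7% and 995.6% to between 977.3% and 3310%, with a slight overlap. At 2 h none of the 3 was called, with changes between 0.60 and 0.72. The 6 h changes were 2.32, 2.42 and 2.21 in Keller and 1.28, 1.65 and 0.87 in BTX623, and the difference between the cultivars was not called at any of them (limma, adjusted p = 1.0). Just before them, Sb08g022410, similar to a thaumatin-like protein, of a family of pathogenesis-related proteins, changed by 1.22 with an adjusted p of 0.053, above the threshold.

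Single loci were also called higher. Sb08g021920, annotated as an expressed protein, was higher at 2 h only, with 25.5% to 39.3% at 0 h, 68.5% to 94.0% at 2 h and 32.8% to 46.5% at 6 h. Its change was 1.27 at 2 h (SE 0.20, adjusted p = 0.017) and 0.20 at 6 h (adjusted p = 0.56). Sb08g022590 rose by 1.56 at 2 h (adjusted p = 0.024) and was 1.1 above 0 h at 6 h (adjusted p = 0.033). Sb08g021950 rose by 1.31 and 1.33 at these times (adjusted p = 0.04 and 0.015). Its arrays at 6 h read 17.4% and 22.3% in Keller and 4.32% and 6.84% in BTX623, and the cultivar difference in the change was 1.52 (SE 0.54, adjusted p = 1.0). Sb08g022270 changed by 1.03 at 2 h (adjusted p = 0.045), a fit that lacks the first Keller array at 0 h, where the spot was marked as an outlier, and the call was lost whichever array was left out.

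The 4 loci called lower at 6 h included the largest changes over time in the block. Sb08g022310 is annotated as similar to phytoene synthase 2, which makes phytoene in the first committed step of carotenoid synthesis, and is on the list of loci related to CACTA elements. Its arrays read 137.0% to 288.1% at 0 h and 17.1% to 28.3% at 6 h, a change of -3.21 (SE 0.45, adjusted p = 0.0033). The arrays at 2 h spread from 62.9% to 269.9%, and the change there was not called (-1.06, adjusted p = 0.25). Keller changed by -3.04 and BTX623 by -3.38 at 6 h, and the difference of 0.35 was not called (SE 0.90, limma, adjusted p = 1.0). Sb08g022350 went from between 583.5% and 1575% to between 85.8% and 199.6%, a change of -2.89 (SE 0.47, adjusted p = 0.0062). Sb08g021840, the neighbour of the BSL2 locus, went from 46.4% to 97.0% down to 12.6% to 22.7%, a change of -2.09 (SE 0.30, adjusted p = 0.0035), and BSL2 itself changed by 0.25 (adjusted p = 0.32). At Sb08g021720 none of the 4 arrays at 6 h was well above background, and 2 of 4 were at 0 h. Its measured change of -2.01 (limma, adjusted p = 0.0076) thus includes signals that were not well above background. The 2 arrays well above background at 0 h were both of Keller (7.96% and 8.26%). The BTX623 arrays at 0 h (2.99% and 2.36%) were not well above background, so the fall was measured in Keller only. This call was lost after normexp background correction (limma, adjusted p = 0.32) and without scaling between arrays (adjusted p = 0.076).

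**Figure D4:**
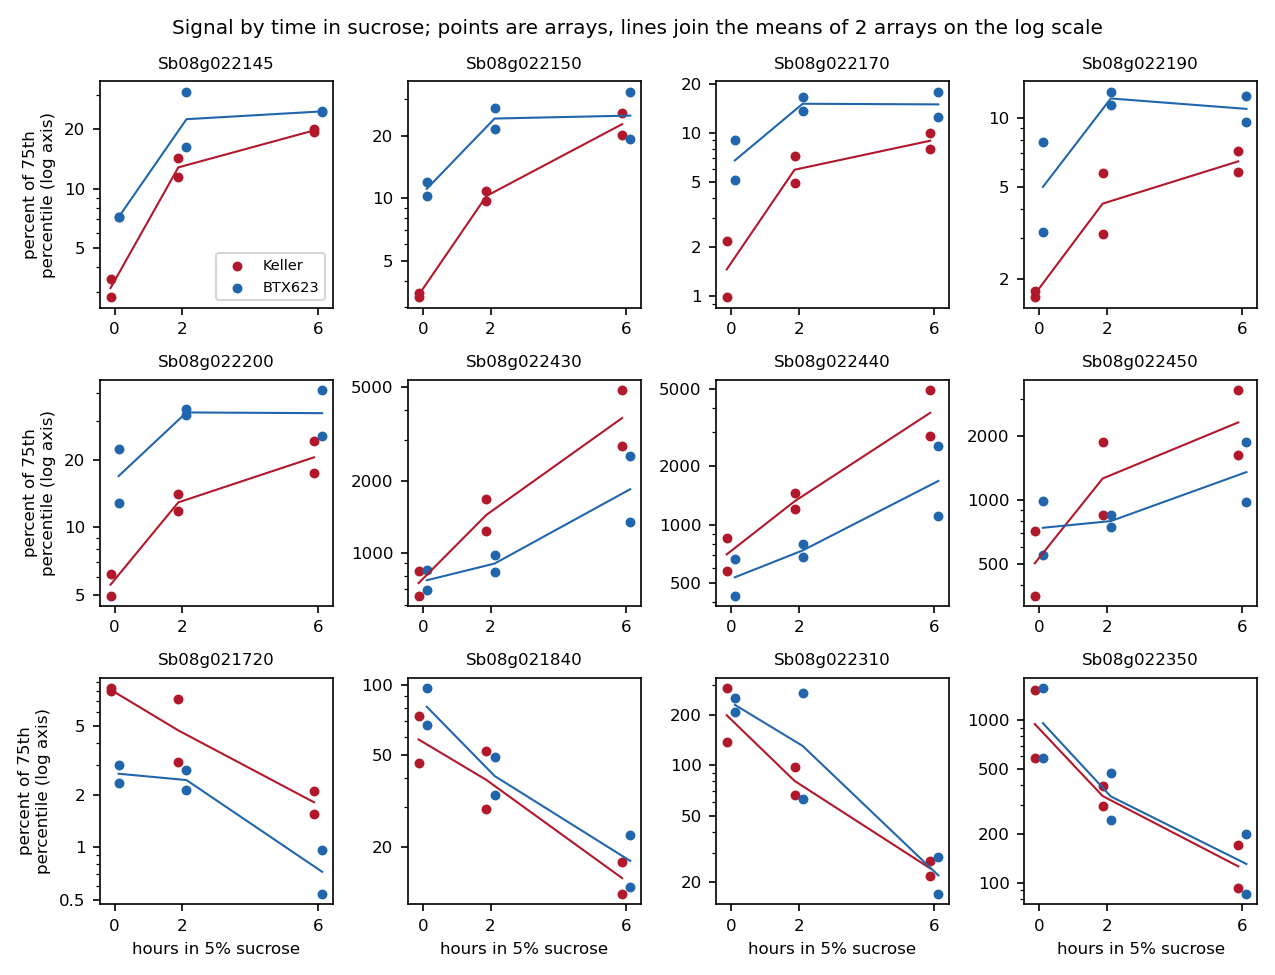
Scaled signal (log axis, percent of the array's 75th percentile) against hours in 5% sucrose for 12 of the 16 loci called at 2 h or 6 h, with each point 1 array, Keller in red and BTX623 in blue, and lines joining the means of 2 arrays on the log scale. The lines of the 8 loci in the upper rows lie higher at 6 h than at 0 h and those of the 4 loci in the lowest row lie lower, in both cultivars, with Sb08g022350 going from between 583.5% and 1575% to between 85.8% and 199.6%. At Sb08g021720 no BTX623 array at 0 h or 6 h was well above background.

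Whether the change in sucrose differed between the cultivars was tested as an interaction. At 2 h and at 6 h, 0 loci of the block were called, beside 0.0% of all loci tested. At an unadjusted p under 0.05 limma gave 4 and 7 of the 200 loci of the block that passed (background 0.809% and 0.977%). Both backgrounds lie below the share that a threshold of 0.05 gives without any difference. Nothing is therefore read from the 0 calls of this fit. With the replicate block or the slide as a block the calls were 0 as well. Over the 18 divergent loci the interaction ran from -1.51 to 1.04 at 2 h and from -1.28 to 1.35 at 6 h, with SEs between 0.32 and 1.12, so changes of 2-fold could not be detected at many of them. The highest at 6 h was that of Sb08g022870 (1.35, SE 0.70, adjusted p = 1.0), the locus whose Keller arrays were lowest at 0 h. Its change averaged over the cultivars was 1.17 at 6 h (SE 0.35, adjusted p = 0.059), above the threshold. Of the listed loci that passed, none of the 11 transcription factors, 2 carbohydrate genes or 8 LTR-related loci was called at 2 h or 6 h. Of the 9 CACTA-related loci 1 was, Sb08g022310. Over all loci tested, 0.944% were called higher and 1.55% lower at 2 h, and 3.7% and 5.57% at 6 h. With lists this short, nothing is read from these counts. The auxin response factor homolog Sb08g021460 had an adjusted p of 0.011 at 6 h, with a change of 0.98, just under 2-fold.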

How the data were processed

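Total RNA of whole seedlings was labelled with Cy3 and hybridised to a custom 4-array slide format of Agilent 60-mer probes. The authors deposited, for each of the 12 arrays, the intensity values of Agilent Feature Extraction 10.7.1.1, in which per the file headers the processed signal is background-subtracted and detrended within the array but not normalized between arrays. A matrix deposited by the authors held the same intensity values and was used as an alternative chosen after seeing the data. Control spots were left out and 41977 probes of the design were kept, 35577 of them for annotated loci. Spots flagged as outliers were left out (2 of them at the block), no member was saturated, and flags had to hold for at least 50% of a probe's spots.

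The log2 processed signal was reduced by the log2 of each array's 75th percentile, which ranged from 323 to 677, and a locus with several probes was represented by the one with the highest mean. Group means over all 12 arrays were fitted with limma 3.58.1 in R 4.3.3 (lmFit and eBayes with a variance trend) on the 31950 probes that passed the filter. Summaries were made in Python 3.11.15 with pandas 2.3.3 and numpy 2.4.6. The fit was also run on simulated data with independent noise on each array. No outcome is given here, and that setting lacks the deviations that same-numbered arrays shared. The 2 arrays of a group came from separate biological repeats, and their number limits the precision.

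Same-numbered arrays deviated together from their group means in all 15 pairs of groups (r from 0.276 to 0.66). A further fit therefore treated the numbers as pairing the samples. The main fit did not, and left this shared deviation in its estimate of the spread. Replicate number and slide overlap in part, and which of them the arrays share cannot be told apart.

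The members of the block and all lists were chosen with earlier results of these data known. The loci named are the 10 with the largest non-overlapping cultivar difference in each direction that were detected on all arrays of the higher cultivar, those detected in 1 cultivar on all its arrays and on no other, the 5 largest sucrose calls in each direction and time, the edge loci and up to 4 of each list. The other divergent and called loci, the loci that overlapped, their neighbours, further listed loci and the loci that hardly differed were named after their values were seen. Descriptions came from the study's lists of transcription factors, carbohydrate enzymes, LTR-related and CACTA-related loci and segmental duplicates. Those lists name no genome build, so no coordinates are printed. Root markers and further function classes were planned but not examined here, since the reference table used pairs no descriptions with these locus names.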

Additional observations from a re-analysis of the deposited data

Results flagged for a closer look

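Among the 34 loci that were divergent or called at 2 h or 6 h, the 6 arrays of a cultivar were searched for 1 array that stands apart by Dixon's criterion, and 4 of 67 sets showed one, where chance alone gives about 1 in 20. At Sb08g021630 the first Keller array at 6 h read 8.68% of the 75th percentile, above the other Keller arrays, and the first BTX623 array at 0 h read 0.476%, below the other BTX623 arrays. Leaving out either array is among the alternatives for the counts given below. At Sb08g021850, the BSL2 homolog, the same Keller array read 36.5%, the highest of that cultivar and still below every BTX623 array. At Sb08g022190 the first BTX623 array at 0 h read 3.19%, the lowest of its cultivar. Those 6 arrays of a cultivar span 3 times in sucrose, so array and time cannot be told apart there.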

How the results depend on the processing

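Counts and levels near background moved with the background correction. With normexp (offset 50) the block had 6 loci higher in Keller and 1 higher in BTX623, the median cultivar difference was 0.258, and 1 locus was called at 2 h and 6 at 6 h. Sb08g021710 then changed sign (0.053). By its construction the offset pulls low signals together. Without scaling, the median over all annotated loci moved from 0.077 to -0.106, that of the block was -0.072, and 0 and 7 loci were called at 2 h and 6 h. Of the loci detected on all 12 arrays, 4 were higher in Keller and 2 in BTX623. A 4-fold threshold left 9 and 1, and 14 were 2-fold higher in BTX623 with overlap allowed. Within slides 1, 2 and 3, where few arrays meet, 35, 34 and 27 loci were higher in Keller and 17, 24 and 13 in BTX623. An alternative chosen after seeing the data, which asked for the same direction without overlap on every slide taken alone, gave 13 and 6. The share of all annotated loci was not taken under these alternatives. Their counts show how far the rule moves them, and nothing about the block is read from them. With single arrays left out the counts over all slides ran from 14 to 16 and from 4 to 6, and the median from 0.077 to 0.149.

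Detection in Keller only covered 3 loci when all 6 arrays of that cultivar and none of the other were required and 9 when the scanner's weaker flag (signal positive and above background) was used. For BTX623 only these numbers were 0 and 5. With 1 replicate number left out they ran from 10 to 18 for Keller and from 2 to 14 for BTX623. Shares over all annotated loci were not taken for the weaker flag or with a replicate number left out.

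The replicate block gave 15 calls at 2 h and 26 at 6 h, and the slide as a block 16 and 28. At 2 h there were 4 calls with no filter and 1 at an adjusted p under 0.01, and 0 to 4 with an array left out. At 6 h between 11 and 21 were called in that way. The interaction gave 0 calls under every alternative run, the replicate block included. The moves of the cultivar differences at the divergent loci were set against an SD. It was that of the differences between same-numbered arrays of the cultivars at the same time. Over all alternatives they moved beyond this SD in 36 cases (17 with normexp, the rest within single slides). They changed sign in 1 and moved less in 341, with the filters left out since they cannot change a value. Calls at 2 h or 6 h were kept in 306 cases and lost in the rest.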
